A study of Mus musculus with 12 samples.

Results

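Cold-exposed brown adipose tissue gave 11227 Rev-Erbα binding sites, out of 13410 sites in the 2 peak lists of the study. They are every row of the list made from the libraries at 4 °C, taken with no further selection, and each is described by its signal in HA-RevErba mice and in wild type (WT) mice at the same temperature. The sites are 200 bp windows on mouse build mm9. The tissue came from C57BL/6 mice housed at 4 °C for 1 week. One group, 4 libraries, had the genotype HA-RevErba, which by its name carries Rev-Erbα with an HA epitope tag. The other, 2 libraries, was WT and has no tag, so its signal is the background of the pull-down. All 6 were chromatin immunoprecipitations with anti-HA magnetic beads (Pierce) followed by sequencing. Age, sex, the promoter that drives the tagged allele and whether each library is 1 animal are not given in the labels. The signal is given only for 1 pool of libraries per group, so no spread between animals could be measured and no p-value is given for any site. Chromatin binding does not measure expression, so the tissue label could not be checked against expressed markers, and a site in whole tissue cannot be assigned to a cell type.

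Rev-Erbα, the product of Nr1d1, is a nuclear receptor that lacks the part of the ligand-binding domain that recruits coactivators. It binds DNA at the half-site AGGTCA preceded by an A/T-rich stretch, known as the RORE, and brings the NCoR corepressors and HDAC3 to repress transcription. The ROR receptors activate from the same element, and their contest at the BMAL1 gene (Arntl) forms one loop of the circadian clock. In brown fat Rev-Erbα is known as a repressor of thermogenic genes, Ucp1 among them.

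Peak sequence on build mm9 was not used here, so sequence is shown only for promoters, from RefSeq on GRCm38.p6, matched through gene IDs. A peak was centred between 250 bases before and 50 bases after a transcription start site (TSS) at 243 genes, and 144 of these had a single promoter in the RefSeq table. The RORE, allowing A or G at the first base of its half-site and read on both strands, was found in 10 of the 144 (6.94%, interval 3.38 to 12.4), against 1.53% of the 22856 genes with a single promoter. The plain half-site AGGTCA was found in 21 of the 144 (14.6%), near its share of 16.0% among all promoters. With a T in front, TAGGTCA was found in 9 (6.25%, interval 2.90 to 11.5) against 2.57%. Many RORE matches contain these shorter motifs, so the 3 counts overlap. The clock E-box CACGTG was found in 12 (8.33%) against 7.12%. Among the 48 promoter sites with the highest difference between the pools 6 held a RORE (12.5%, interval 4.73 to 25.2), and among the other 96 it was 4 (4.17%, interval 1.15 to 10.3). These 2 intervals overlap, so a difference between the 2 groups is not resolved. A match describes the letters only.

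The 6 promoters with a RORE among those 48 are shown because each sets a match beside a measured site. They were chosen after the values were seen. Capitals mark the match, which lies on the opposite strand at Bet1, and each run ends at or before the TSS. The stretches are 5′ to 3′ on the strand of the gene, at chr16:25059439-25059498 (plus strand), chr1:80213945-80213991 (minus), chr10:61720408-61720467 (plus), chr9:75441433-75441492 (plus), chr6:4087099-4087158 (minus) and chr2:25196857-25196916 (minus) of GRCm38.p6, in the order printed.
A230028O05Rik: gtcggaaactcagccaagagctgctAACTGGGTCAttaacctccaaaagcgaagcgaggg
Fam124b: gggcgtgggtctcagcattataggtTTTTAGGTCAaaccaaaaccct
Aifm2: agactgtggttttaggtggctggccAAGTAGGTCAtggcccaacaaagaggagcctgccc
Leo1: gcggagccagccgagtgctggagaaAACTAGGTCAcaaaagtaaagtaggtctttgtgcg
Bet1: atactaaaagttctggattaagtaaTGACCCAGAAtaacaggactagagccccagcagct
Tor4a: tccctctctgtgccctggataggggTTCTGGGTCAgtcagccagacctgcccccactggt

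At A230028O05Rik the site had 27.93 FPKM in the HA-RevErba pool and 3.14 in the WT pool. FPKM are reads scaled to the length of the window and to the size of the pool, and all windows have the same length. Fam124b had 25.89 and 1.12 FPKM, with the peak centre 74 bases from the middle of the match. Aifm2, which encodes the ferroptosis suppressor FSP1, had 22.28 and 1.85 FPKM, 59 bases from its match. Leo1, a subunit of the PAF1 elongation complex, had 15.85 and 1.12 FPKM. Bet1, a SNARE of the Golgi, had 14.44 and 3.14, and Tor4a, an ATPase of the torsin family, 12.95 and 2.77. Tor4a holds 3 matches, and the one nearest its peak is shown. Over WT these 6 sites ran from 4.60 times at Bet1 to 23.1 times at Fam124b. In 9 of the 10 promoters with a RORE the match lay within 100 bases of the peak centre, that is, inside the 200 bp window as far as the annotated starts of the 2 builds coincide. Peak centres and matches were both limited to the same 300 bases, and Tor4a counts by its nearest match. Closeness is thus partly set by the selection, and no expected share was computed, so nothing is concluded from this count.

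Some clock genes carried stronger sites at their starts. The RefSeq table has 2 starts of Arntl, 46 bases apart, and 27 bases after the later one stands a RORE, shown with 10 bases on each side (chr7:113207528-113207557, plus strand, GRCm38.p6). The promoter of Nfil3, which encodes a repressor of PAR bZIP target genes, holds a RORE on the opposite strand 12 bases before the TSS, and its peak was centred 52 bases after the TSS, just outside the window counted above. The promoter of Nr1d1 itself had the strongest promoter site of the list and none of the searched letters in the 250 bases before its TSS. For Nfil3 and Nr1d1 these 250 bases are shown whole (chr13:52981040-52981289 and chr11:98775378-98775627, both on the minus strand, GRCm38.p6), with the match in capitals.
Arntl: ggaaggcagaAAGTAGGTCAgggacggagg
Nfil3: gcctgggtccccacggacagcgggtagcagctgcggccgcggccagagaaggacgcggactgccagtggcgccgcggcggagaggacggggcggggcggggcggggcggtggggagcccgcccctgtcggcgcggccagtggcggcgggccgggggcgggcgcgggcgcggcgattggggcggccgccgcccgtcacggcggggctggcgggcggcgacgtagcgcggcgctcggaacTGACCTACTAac
Nr1d1: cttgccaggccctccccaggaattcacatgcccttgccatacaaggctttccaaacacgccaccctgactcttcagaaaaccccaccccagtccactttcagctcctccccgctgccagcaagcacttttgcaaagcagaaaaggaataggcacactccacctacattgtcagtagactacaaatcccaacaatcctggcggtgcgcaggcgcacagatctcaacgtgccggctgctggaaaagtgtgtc

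Depth was compared first. The 4 HA-RevErba libraries had 28.7 M to 37.3 M aligned reads (mean 32.0 ± 3.80 M, SD, n = 4) and the 2 WT libraries 29.2 M and 32.6 M (mean 30.9 ± 2.43 M, SD, n = 2). The difference of the means, 1.05 M, is within the library-to-library spread (exact permutation test, two-sided, p = 0.867). With 0.0667 the smallest p this design allows, the test could not have called a difference, and without HA-RevErba replicate 2 or WT replicate 2 the sign turned (-0.711 M and -0.666 M). Nothing in the labels says that the libraries came from separate animals, so that spread may be technical. The FPKM behave as whole reads, so the pools could be sized: 63.8 M reads for HA-RevErba, or 49.8% of the aligned reads of its libraries, and 27.1 M for WT, or 43.9%. The WT pool is smaller than either WT library, so it cannot be told whether reads of both entered it. A read is worth 0.0784 FPKM in the HA-RevErba pool and 0.184 FPKM in the WT pool. The median site rested on 90 HA-RevErba reads and 6 WT reads, so the WT count set the precision of nearly every ratio. Intervals of a ratio or share are exact Clopper-Pearson intervals at 95%, and those of a median are order-statistic intervals over sites. Neither covers more than counting or the spread over sites, because the reads carried no molecular identifiers and sites of 1 pool are not replicates. The windows together held 1.94% of the reads of the HA-RevErba pool and 0.280% of those of the WT pool.

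Sites differed widely in strength. HA-RevErba signal ran from 3.07 to 84.07 FPKM with a median of 7.07, and WT signal from 0.01, the deposited value of a window with no read, to 5.91 with a median of 1.12. The difference between the pools had a median of 5.90 FPKM and reached 80.01. With the pools scaled to the aligned reads of their libraries that median was 3.004 FPKM. The ratio had a median of 6.26, with quartiles of 4.95 and 8.99. Because the authors kept only windows above limits of about 3 FPKM in difference and 4 times in ratio, enrichment over WT as such is how the list was made and not a result. At the limit of difference stood 32 sites, each with 3.38 FPKM against 0.38, among them those beside C330004P14Rik, Cdca7l, Clmn, Gm20110 and Papola. At the limit of ratio stood 42, each with 5.19 against 1.30, or 3.99 times, among them those beside Dnm3, Gm16897, Gm19582, Mir6899 and Zcchc2. Many sites lay close to these limits: 1267 had a difference under 3.5 FPKM and 1655 a ratio under 4.5. At the other end, 330 had a difference of at least 20 FPKM and 97 of at least 30. A difference of at least 6 FPKM together with a ratio of at least 8, called the stricter limits below, was reached by 2008 sites (17.9%). The counting interval of the ratio lay above 1 at every site and above 2 at 10152 (90.4%), but above 4 at 2166. The list was cut on the same values, so these counts follow in part from its limits and are no support for enrichment.

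**Figure D1:**
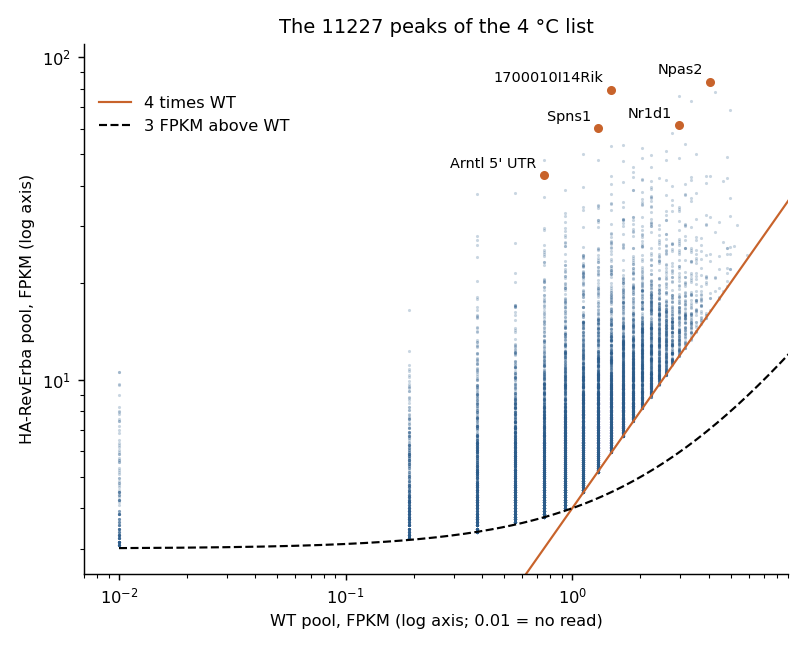
Signal of each of the 11227 sites in the HA-RevErba pool (vertical, FPKM, log axis) against the WT pool (horizontal, FPKM, log axis), 1 point a site, with the limits of the list as lines. The cloud stops at the dashed line (3 FPKM above WT) on the left and at the solid line (4 times WT) on the right, WT values fall on steps of 1 read (0.184 FPKM), and the 5 marked sites stand between 43.14 and 84.07 FPKM.

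The strongest site lay 1.43 kb upstream of Npas2, which encodes a partner of BMAL1 (chromosome 1, 39249586 to 39249786, intergenic). It had 84.07 FPKM in the HA-RevErba pool and 4.06 in the WT pool, a ratio of 20.7 (13.6 to 33.2). Cry1, a clock repressor, had 78.19 against 4.25 FPKM in an intron at 23.1 kb, a ratio of 18.4 (12.2 to 29.2). The promoter of Nr1d1 had 61.57 against 2.96 FPKM, a ratio of 20.8 (12.8 to 36.7). Clock genes were thus the annotated genes of these 3 sites. No share of clock genes expected among the strongest sites was computed, so no excess is concluded.

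The others of the 15 strongest were annotated to genes of other kinds, although that of Rpl31 lies in an intron of Npas2. The uncharacterised locus 1700010I14Rik had an intronic site with 79.44 FPKM against 1.48, a ratio of 53.7 (27.2 to 125). Abr, a regulator of small GTPases, had 75.68 against 2.96 FPKM. A site 226.7 kb upstream of Il12b, which encodes a subunit of interleukin-12, had 73.33 against 3.33, and an intron of Cdkn1a, the gene of the cell-cycle inhibitor p21, had 68.86 against 4.99. Spns1, a lysosomal lipid transporter, had 60.39 against 1.30 FPKM, a ratio of 46.5 (22.6 to 117). Dhrs3, a retinal reductase, Cars2, the mitochondrial cysteinyl-tRNA synthetase, Elfn1, Zbtb16, Mir6995, Mmp15 and Rpl31 completed the 15, down to 50.27 FPKM at Mmp15, a membrane-bound metalloproteinase. WT signal at these 15 sites ran from 1.12 FPKM at Mmp15 to 4.99 at Cdkn1a, which is the median of all sites and above.

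Large ratios came from low WT counts as well as from strong signal. Among sites with at least 1 FPKM in the WT pool, 1700010I14Rik and Spns1 had the largest ratios, followed by Mmp15 with 44.9 (20.8 to 124). Pdcl3, Elfn1, Brms1l, Cars2, 1700100L14Rik, Mir467h and Olfr279 came next, from 36.9 down to 29.0. Their intervals overlap, so their order is not resolved. The WT pool had no read at 138 sites (1.23%). The 5 highest of these, beside Gm6498, Tmcc3, 1700021F07Rik, Tnfaip6 and Col5a3, had 10.60, 10.60, 9.73, 9.66 and 8.95 FPKM in the HA-RevErba pool. Against a floor of 3 reads in the WT pool, or 0.553 FPKM, they were at least 19.1-fold, 19.1-fold, 17.6-fold, 17.4-fold and 16.2-fold higher.

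Sites with more WT signal also had more HA-RevErba signal. Across the sites the rank correlation between the pools was 0.72 (n = 11227) and 0.67 over the 6429 sites with at least 1 FPKM in WT. The sites share the 2 pools and the limits of the list, so this is a description. From the lowest class of WT signal (up to 0.38 FPKM, 1211 sites) to the highest (2.41 to 5.91 FPKM, 956 sites) the median HA-RevErba signal was 4.32 and 14.6 FPKM, and the median difference 4.02 and 11.8 FPKM. The median ratio was 17.4 and 5.11, but nearly all of that lay at low WT signal: the rank correlation of ratio and WT signal was -0.54 over all sites and -0.09 over those with at least 1 FPKM in WT. The 10 sites with the highest WT signal held 4.99 to 5.91 FPKM there and included Cdkn1a and a site 8.14 kb upstream of Nr1d1 with 36.71 against 4.99 FPKM. The highest of all was another site of Zbtb16, with 24.40 against 5.91 FPKM, and the rest were at Pigl, Tbc1d1, Ptpa, Ergic1, Plin2, Pomgnt2 and Tmem254b. At the last 2 the HA-RevErba pool had 24.55 and 22.04 FPKM.

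Clock genes had sites at 17 of 21 members of 4 lists. The background for such counts was the 21.8% of 21031 protein-coding genes (4587) that were the annotated gene, by nearest TSS, of at least 1 site, or 9.37% with a site within 10 kb of the TSS and 5.92% with a site at the stricter limits. The lists were drawn up with earlier results of these data known, so their counts are descriptions.

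Of the activators, 3 of 4 had a site. Arntl had 9 sites, from 21.2 kb upstream to 53.2 kb downstream of its TSS (chromosome 7, 120329633 to 120404263). The site in its 5′ untranslated region, 137 bases from the TSS, had 43.14 FPKM against 0.75, a ratio of 57.5 (22.7 to 215), and one in an intron at 43.8 kb had 48.63 against 2.96, a ratio of 16.4 (10.1 to 29.0). The remaining 7 had 4.17 to 23.22 FPKM against 0.93 to 1.85. Clock, which encodes the partner of BMAL1, had a single promoter site with 19.46 against 2.04 FPKM. Npas2 had another site 2.85 kb upstream with 21.26 against 1.30 FPKM. Its introns held 4 more, which the annotation gives to Rpl31 because that TSS is nearer, with 49.80, 41.33, 51.37 and 5.66 FPKM against 2.22, 2.22, 2.59 and 0.19 in the WT pool. Counted by the gene whose intron or upstream region they lie in, Npas2 thus had 6 sites, and 4 of them exceeded 40 FPKM. Arntl2, the fourth activator, was not the annotated gene of any site.

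The repressors were led by Cry1. Besides its intronic site it had one 5.08 kb upstream with 19.85 against 2.22 FPKM and one 1.23 kb downstream with 9.66 against 1.85. Cry2 had 11.54 against 1.67 at its highest site, 9.44 kb upstream. The 3 sites of Per2, all intronic, had 10.44, 8.64 and 6.44 FPKM against 1.67, 1.48 and 1.48. Per3 had 1 site near the limit of the list, 9.03 against 2.22 FPKM, a ratio of 4.07 (2.25 to 8.12). Cry1 thus had by far the highest signal of the repressors, although the intervals of the ratio at Per2 and Cry2, up to 14.1 and 15.5, reach into that of Cry1.

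Among the receptors, Nr1d1 had 4 sites. Its promoter site and the one 8.14 kb upstream are given above, and sites at 1.55 and 9.68 kb downstream had 21.89 against 2.77 and 8.64 against 1.12 FPKM. Nr1d2, which encodes Rev-Erbβ, was the annotated gene of none. Rora had 6 intronic sites of 4.56 to 6.68 FPKM, but 2 more sites in its introns were annotated to the noncoding gene Gm15511, and one of these, named after its value was seen, had 32.00 FPKM against 1.85, a ratio of 17.3 (9.34 to 36.5). Rorb had a highest site of 6.52 against 1.12 FPKM at 104 kb.

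All 6 output factors had a site. Nfil3 had 8, the highest at its promoter with 28.32 against 2.59 FPKM, and 2 in its introns, 18.75 against 1.85 and 13.03 against 1.12. Hlf, a PAR bZIP factor, also had 8, the highest 27.2 kb upstream with 28.24 against 1.67 FPKM, while the sites in its introns had 4.71 to 11.69 FPKM. Dbp, another PAR bZIP factor, had a single promoter site of 12.16 against 1.48 FPKM, and Tef, the third, a single site of 5.58 against 1.30 that lies in an intron of the neighbouring Zc3h7b. The repressor genes Bhlhe40 and Bhlhe41 had 12.32 against 2.77 and 12.09 against 1.48 FPKM. Nfil3 and Hlf were thus above the other 4, and Tef was the lowest.

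Many genes collected several sites. The 11227 sites were annotated to 5451 genes, of which 2976 had 1 site, 1183 had 2, 1292 had 3 or more and 52 had 10 or more. The 445 genes with 5 or more sites held 3033 sites, or 27.0%. Zfp608, a zinc finger gene, had the most, 21, and 15 of them lay more than 100 kb from its TSS. They ran from 3.54 to 29.10 FPKM, the highest 143.9 kb upstream, where WT had 2.96. Klf4, which encodes a Krüppel-like factor, had 17, all intergenic and all upstream, out to 581.6 kb, with 3.62 to 17.97 FPKM. Plpp3, a lipid phosphate phosphatase, had 17, with 13 beyond 100 kb and none within 10 kb. For sites this far out the annotation gives only the nearest TSS, not the gene they may act on.

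The 17 sites of Col4a2 had another layout. This gene and Col4a1 encode the main chains of basement membrane collagen and share a start region on opposite strands. Of the 17 sites, 14 lie in introns of Col4a1, from 78.5 to 4.07 kb upstream of the Col4a2 TSS. They included the longest run of neighbouring sites in the list, 13 sites with gaps under 10 kb (chromosome 8, 11249609 to 11308835). Over its 59.2 kb the HA-RevErba pool had a sum of 253.1 FPKM and the WT pool 25.75. The 2 highest of the run had 41.65 against 2.59 and 40.71 against 3.88 FPKM. Celf2, an RNA-binding protein gene, had 16 sites, 15 of them intronic, and Nav2, Tbl1xr1 and Galnt18 had 15 each. Tbl1xr1, a subunit of the NCoR complex, had 14 intergenic sites out to 699.5 kb upstream, with a highest value of 25.97 against 2.59 FPKM.

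**Figure D2:**
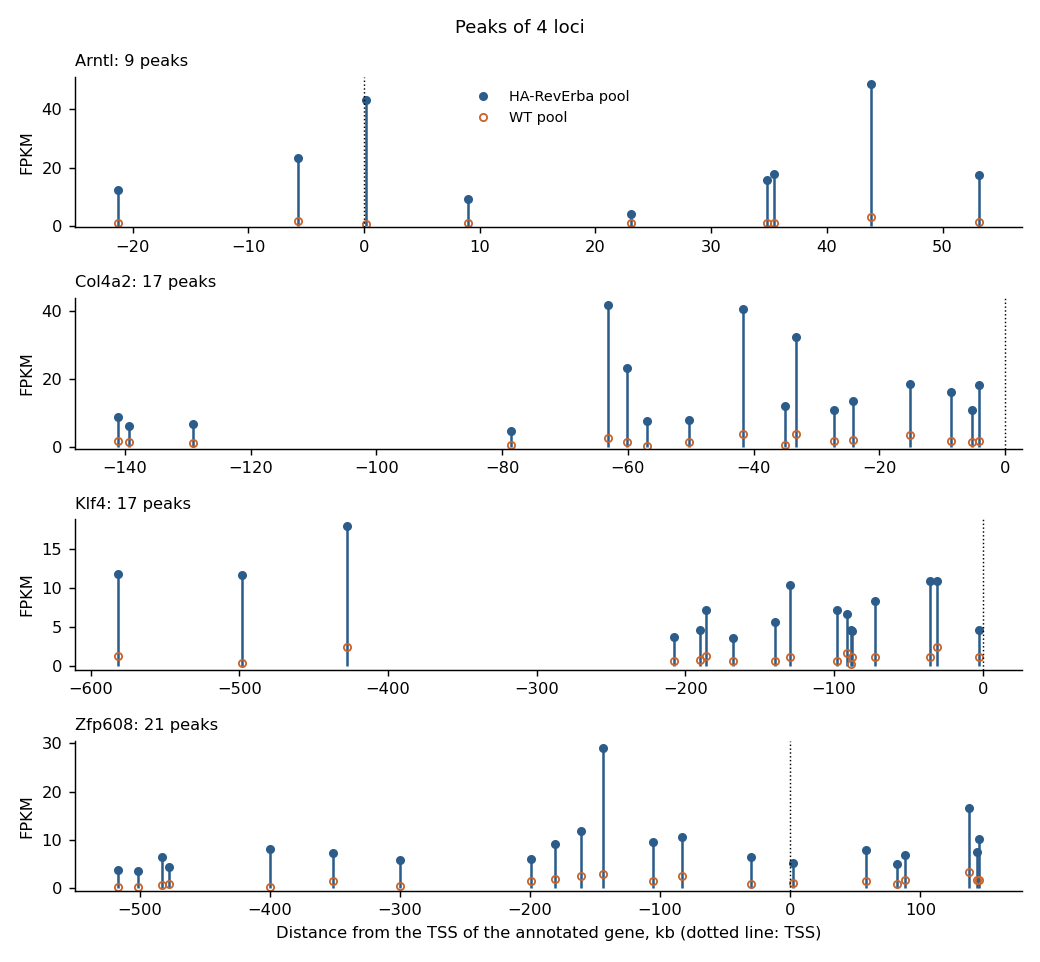
Sites of 4 loci by their distance from the TSS of the annotated gene (horizontal, kb), with the signal of the HA-RevErba pool (filled points on stems) and of the WT pool (open points) in FPKM, 1 pool each. Arntl has 9 sites around its start, Col4a2 has 17 upstream of it and 14 of those within Col4a1 introns, and those of Klf4 and Zfp608 are spread out beyond 500 kb upstream, while the WT points stay at or below 3.88 FPKM in all 4.

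Runs of neighbouring sites were common. With gaps under 10 kb the sites formed 8573 runs. Of these, 6664 were single sites and 1909 held 2 or more, with 4563 sites (40.6%) in all. The 48 runs of 5 or more sites held 274 sites, and after the run in Col4a1 the longest lay at Zbtb16 and Nnmt (9 sites, 214.31 against 25.53 FPKM in sum) and at Ski and Morn1 (9 sites, 95.92 against 12.80). Zbtb16 encodes PLZF, a transcriptional repressor, and its introns held 10 sites, among them one of the 15 strongest of the list and the one with the highest WT signal. Longer runs held sites with more signal. The median difference was 5.35 FPKM for single sites, 6.57 in runs of 2, 7.26 in runs of 3 to 4 and 7.91 in runs of 5 or more. WT signal was higher there too, with medians of 1.12 and 1.48 FPKM in the first and last of these groups. The number of long runs depends on the gap allowed, with 7 runs of 5 or more at 5 kb and 175 at 20 kb.

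Lipid genes were often the annotated gene of a site. Of the fatty acid synthesis list, 16 of 22 members had one and 10 had one within 10 kb, against 21.8% and 9.37% of all coding genes. Insig1, which holds SREBP in the endoplasmic reticulum, had 20.01 against 1.12 FPKM at 33.6 kb upstream, a ratio of 17.9 (8.19 to 49.7). Acaca, an acetyl-CoA carboxylase gene, had 17.73 against 3.70, a ratio of only 4.79 (3.04 to 8.02) because the WT signal was also high. The elongase gene Elovl5 had 15.46 against 2.41, the desaturase gene Scd1 15.30 against 2.59, malic enzyme (Me1) 13.26 against 2.04 and Insig2 11.85 against 1.48. Cholesterol synthesis differed: 4 of 17 members had a site (23.5%), near the background, and 1 within 10 kb. Those were Hmgcs1, Lss, Fdft1 and Sc5d, with 13.34, 7.30, 4.95 and 10.75 FPKM, and the Hmgcs1 site lies on a random contig of chromosome 13.

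By the median of their members' highest difference, the lists of fat storage, release and uptake stood above those of fatty acid and cholesterol synthesis. No interval was computed for these medians, and that of cholesterol synthesis rests on 4 members. A highest value can also rise with the number of sites of a gene, so the order is a description. Triglyceride synthesis and lipolysis counted 17 of 22 members, 12 of them within 10 kb, against 21.8% and 9.37% of all coding genes. The median of its members' highest difference was 11.3 FPKM, against 9.06 for fatty acid synthesis and 7.355 for cholesterol synthesis. Its median ratio at those sites, 6.52, was near the 6.50 of all coding genes with a site, and that of fatty acid synthesis was 6.16. At the stricter limits it had 4 of 22 members, against 5 of 22 for fatty acid synthesis. Agpat3, an acyltransferase, had 23.53 against 3.14 FPKM, and Agpat9, which encodes the glycerol phosphate acyltransferase GPAT3, had 17.50 against 1.48. The 3 lipolytic genes Lipe (hormone-sensitive lipase), Mgll (monoglyceride lipase) and G0s2 (an inhibitor of the first lipase of the pathway) had 20.87 against 2.77, 19.61 against 1.85 and 16.87 against 2.77. Plin2, a lipid droplet coat protein, had 22.04 against 4.99, one of the highest WT values of the list. Lipid uptake and transport counted 11 of 15, with 7 of the 15 having a site within 10 kb. At the stricter limits 8 of the 15 had a site, against 5.92% of all coding genes. Lpl (lipoprotein lipase) had 28.08 against 2.41 FPKM at 73.6 kb from its TSS, and its inhibitor Angptl4 25.97 against 2.04 at 2.15 kb. The HDL receptor gene Scarb1 had 25.57 against 3.14 at 67.2 kb, and the fatty acid carrier Fabp4 25.26 against 3.51 at 5.37 kb upstream. The fatty acid transporter Cd36 had 22.28 against 1.85 at 12.1 kb, and Acsl1 17.18 against 2.22 at 83.8 kb upstream. The median of the members' highest difference was 14.96 FPKM for this list, against 6.71 over all coding genes with a site.

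Oxidation and glucose genes had sites at 13 of 25 and 16 of 29 members, against 21.8% of all coding genes. Fatty acid oxidation counted 13 of 25, all 13 with a site within 10 kb. Etfa, the electron transfer flavoprotein subunit, had 29.02 against 1.85 FPKM, but that site lies 90.3 kb away in an intron of Tmem266. Ehhadh, the peroxisomal bifunctional enzyme, had 22.52 against 1.48 in its own intron, a ratio of 15.2 (7.64 to 35.7). Cpt1a, the gate of mitochondrial fatty acid import, had 15.61 against 1.48, Mlycd 15.07 against 2.59 and Hadh 13.97 against 2.59. Glucose uptake and glycolysis counted 16 of 29. Txnip, a brake on glucose uptake, had 25.57 against 4.80, and Pdk4, which blocks pyruvate entry into the mitochondrion, 23.69 against 2.04. Eno1 had 16.01 against 1.12, and the hexokinase genes Hk2 and Hk1 15.77 against 3.14 and 14.05 against 1.48. Of the TCA cycle and respiratory chain genes, 8 of 29 had a site (27.6%), near the background. Among them Idh3a, a subunit of isocitrate dehydrogenase, had 15.46 against 3.14 FPKM at 11.5 kb upstream. Sucla2, a subunit of succinyl-CoA ligase, had 12.16 against 1.30 at 78.9 kb.

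Thermogenesis genes counted 14 of 28, and 10 of the 28 had a site within 10 kb, against 21.8% and 9.37% of all coding genes. Ucp1, the uncoupling protein of brown fat, had 5 sites, the highest 5.80 kb upstream with 20.55 against 1.67 FPKM, a ratio of 12.3 (6.43 to 27.4). The coactivator genes Ppargc1b and Ppargc1a had 16.40 against 2.22 and 14.05 against 2.96, 41.8 kb and 28.1 kb upstream. The proton channel gene Otop1 had 12.95 against 0.93, the adrenergic receptor gene Adrb1 12.63 against 0.75 and the deiodinase gene Dio2 14.20 against 2.96 at 159 kb. Of these 6, Adrb1 and Otop1 had the highest ratios, 16.8 and 13.9, and the lowest signal, while the highest ratio among the strongest sites of all members was that of Gk, the glycerol kinase gene, with 10.20 FPKM against 0.19, 1 read in WT (53.7, 9.75 to 2201).

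Of 18 adipogenic transcription factors, 16 had a site, 9 of them within 10 kb, against 21.8% and 9.37% of all coding genes. Sites are given to the nearest TSS, and several of those below lie far from the gene. Nfib had 32.08 against 2.04 FPKM at 146 kb, and Klf4 17.97 against 2.41 at 428 kb upstream. Pparg, the master factor of adipogenesis, had 17.26 against 2.96 in an intron at 2.56 kb. Ebf1 had 16.09 against 1.85 at 40.1 kb and Nfia 14.91 against 2.04 at 133 kb. Nr3c1, the glucocorticoid receptor gene, had 26.91 against 1.48, but that site lies 129 kb away in an intron of Arhgap26. Of 43 other nuclear receptors, 25 had a site but 11 within 10 kb. Thra, which encodes a thyroid hormone receptor and overlaps Nr1d1 at its end, had 35.77 against 3.33 FPKM. Nr4a1 had 17.03 against 2.04, Rxra 13.34 against 1.67 and Thrb 12.71 against 0.38, at 19.8, 78.0 and 81.8 kb upstream. Corepressor genes counted 6 of 12. Nrip1, which encodes RIP140, had 34.12 against 1.30 at 134.4 kb upstream, a ratio of 26.2 (12.7 to 66.2). Ncor1, a corepressor that Rev-Erbα recruits, had 6.68 against 1.67, and Tbl1x and Fbxw7 had 12.01 against 1.12 and 7.93 against 0.75. Hdac3, the deacetylase that works with NCoR1, was the annotated gene of none.

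Markers of other cells of the tissue differed from one another. All 14 endothelial markers had a site (100%, interval 76.8 to 100), against 21.8% of all coding genes. Within 10 kb 11 had one, against 9.37%, and at the stricter limits 5, against 5.92%. Kdr, the VEGF receptor gene, had 10 sites, the highest 15.69 against 1.12 FPKM, and Cdh5 had 12.95 against 0.75, Esam 11.30 against 0.75, Cldn5 11.38 against 1.48, Eng 12.48 against 2.96 and Sox18 11.77 against 2.41. Their median highest difference, 7.90 FPKM, was close to the 6.71 of all coding genes with a site. None of 12 macrophage markers had one, which allows a share of up to 26.5% and so does not set the list below the background. Of 14 skeletal muscle markers 1 had one, Myh4, with 3.77 against 0.75 FPKM near the limit. Smooth muscle and pericyte markers counted 4 of 12, with Notch3 at 15.85 against 0.38, Mcam at 13.03 against 3.14, Cspg4 at 8.24 against 2.04 and Pdgfrb at 6.28 against 0.19. Nerve and Schwann markers counted 3 of 12, Pmp22 with 12.48 against 1.67, Mbp with 10.67 against 1.48 and Dbh with 6.52 against 0.56. White adipocyte markers counted 5 of 11, with Adipoq, Retn, Nnat, Slc7a10 and Lep between 4.56 and 9.26 FPKM, and none at the stricter limits. Which cells carry the tagged protein is not given in the labels, and its part in these counts was not tested.

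**Figure D3:**
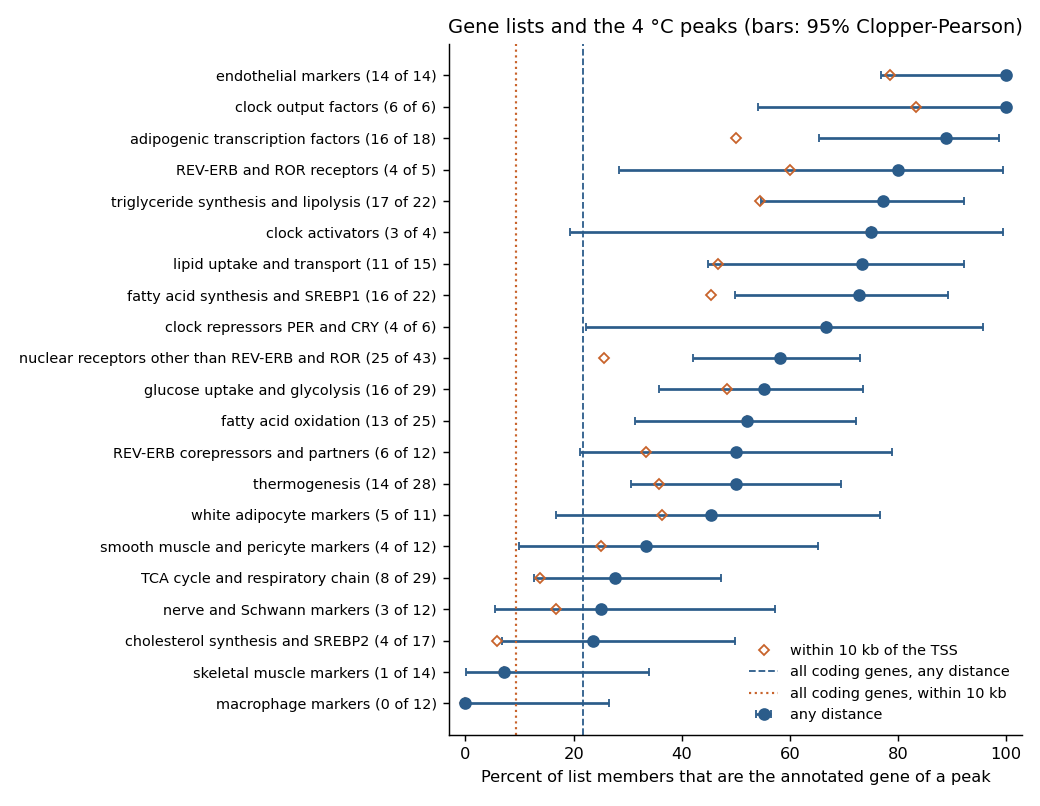
Percent of the members of each of 21 gene lists that are the annotated gene of a site (points, with 95% Clopper-Pearson intervals over members) and percent with a site within 10 kb of the TSS (diamonds), with the shares of all coding genes, 21.8% and 9.37%, as lines. Endothelial markers stand at 14 of 14 and macrophage markers at 0 of 12, and the intervals of 9 lists include 21.8%: clock activators, corepressors, white adipocyte, smooth muscle, TCA cycle, nerve, cholesterol, skeletal muscle and macrophage.

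Most sites lay away from promoters. The share of the genome in each annotation class was not computed, so no excess or lack of sites is concluded for any class. Introns held 5370 (47.8%, interval 46.9 to 48.8) and intergenic sequence 4976 (44.3%, 43.4 to 45.2). Promoters held 429 (3.82%, 3.47 to 4.19), transcription end sites 144, 3′ untranslated regions 131, exons 120, noncoding exons 39 and 5′ untranslated regions 18. Promoter sites had the lowest median ratio of these classes, 5.56 (5.32 to 5.75), against 6.22 (6.15 to 6.33) in introns and 6.41 (6.31 to 6.50) between genes. The smaller classes ran from 5.67 (4.96 to 6.52) in 5′ untranslated regions to 6.875 (5.19 to 8.17) in noncoding exons. All their intervals reach that of promoters, so promoters are not resolved from them. HA-RevErba signal was the same at promoters, in introns and between genes, with a median of 7.07 FPKM in all 3. Median WT signal was 1.30 FPKM at promoters and 1.12 in the other 2, where 1 read of the WT pool is worth 0.184 FPKM. Within 0.1 kb of the TSS, where the median ratio was 5.26, the medians were 6.01 FPKM in the HA-RevErba pool and 1.12 in WT. What lowers the ratio at promoters was not tested. The stricter limits were reached by 13.8% of promoter sites, 17.9% of intronic and 18.8% of intergenic sites, and by 9.17% of exonic sites and 9.16% of those in 3′ untranslated regions.

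Ranked by difference, exons held a smaller share of the strongest sites than of all sites, while promoters did not differ beyond their interval. At the stricter limits, which also use the ratio, promoters held 2.94% (interval 2.24 to 3.77), below their 3.82% of all sites. Of the 100 sites with the highest difference, 53 were intronic, 45 intergenic and 1, that of Nr1d1, a promoter (interval 0.0253% to 5.45%), and none was exonic (upper limit 3.62%). Of the highest 500, 22 were promoters (4.40%, interval 2.78 to 6.59), against 3.82% of all sites. Exons held 0.401% of the fifth of sites with the highest difference (interval 0.183 to 0.759) and 1.07% of all sites. After Nr1d1 the strongest promoter site was that of Nfil3, given above. The strongest exonic sites, annotated to Gosr1, Adam32 and Ppdpf, had 29.96, 15.22 and 17.58 FPKM against 1.67, 0.93 and 3.70. At transcription ends Setd2, Tpra1 and Slc19a1 had 25.65, 23.69 and 24.63 against 1.48, 2.22 and 3.51. The 3′ untranslated regions were led by Fam228a with 23.93 against 1.12, followed by Tmem252 with 17.89 against 2.22, and noncoding exons by P2ry14 with 26.75 against 1.48, Drc1 and Timm22. In 5′ untranslated regions Arntl stood far above the next, Srgap3 and Vwa3a, with 14.60 against 0.93 and 13.73 against 2.77.

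The median ratio was higher farther from the TSS. Within 0.1 kb lay 140 sites with a median ratio of 5.26 (4.90 to 5.65) and a median HA-RevErba signal of 6.01 FPKM. At 0.1 to 1 kb lay 428 with 5.76 (5.58 to 6.00) and 7.62 FPKM. The largest group, 4498 sites or 40.1%, lay at 10 to 50 kb with a median ratio of 6.26 (6.16 to 6.39). The classes differ widely in width and no expected share was computed, so these counts do not show where sites are densest. Beyond 100 kb lay 1858 (16.5%) with a ratio of 6.53 (6.39 to 6.71) but a lower signal, 6.68 FPKM. WT medians were 1.12 FPKM in both of these groups. The share at the stricter limits went from 10.7% within 0.1 kb to 18.7% beyond 100 kb. Side of the TSS changed with distance too. Within 1 kb most sites were upstream, with 35.5% downstream up to 0.1 kb and 34.1% at 0.1 to 1 kb, while beyond 1 kb between 54.0% and 61.2% were downstream. The strongest sites within 0.1 kb were those of Nr1d1, Nfil3 and Fam124b, and at 0.1 to 1 kb they included Cdkn1a and Arntl. At 5 to 10 kb 1700010I14Rik was followed by Glrx, a glutaredoxin gene, with 44.24 against 1.85 FPKM, and Olfr279 with 42.90 against 1.48. Beyond 100 kb Il12b was followed by Elfn1 and by Enox1 with 48.08 against 0.75, a ratio of 64.1 (25.3 to 240).

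**Figure D4:**
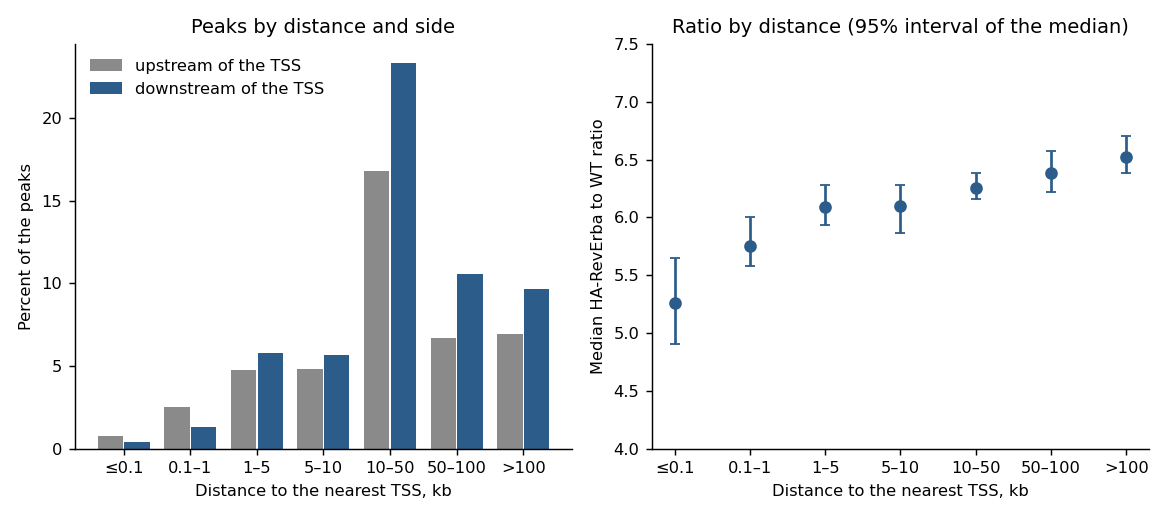
Left, percent of the 11227 sites by distance to the nearest TSS (horizontal, kb) upstream (grey) and downstream (blue); right, the median ratio of HA-RevErba to WT signal in each class with its 95% order-statistic interval over sites. The classes differ in width, so their bars do not show density. The 10 to 50 kb class holds the most sites, 40.1%, and upstream sites prevail only within 1 kb. The median ratio goes from 5.26 to 6.53 with distance (its axis starts at 4).

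Intronic sites lay most often in the first intron, and at 1479 sites in a gene other than the annotated one. The first intron held 1924 (35.8%), the second 999 (18.6%) and the third 574 (10.7%). These shares were not set against the length of the introns, so no preference for the first is concluded. Signal hardly differed, with median HA-RevErba values of 7.07, 6.83 and 7.46 FPKM, and 6.99 for later introns. The gene whose intron a site lies in could be identified for 5350 sites and was the annotated gene in 3871 (72.4%, interval 71.1 to 73.6). The rest includes several strong sites: that of Elfn1 lies in an intron of Mad1l1, a spindle checkpoint gene, that of Mir6995 in Sh3pxd2a, an invadopodium scaffold, and those of Rpl31 in Npas2. By host gene, chosen after the values were seen, Celf2 had the most intronic sites, 18, then Arhgap26 with 17, Prkce, a protein kinase C gene, with 16, and Col4a1 and Col4a2 with 14 each. None of the Col4a1 or Col4a2 sites is annotated to its host, since those in Col4a2 introns are given to Col4a1 or E230013L22Rik. Thrb had 11.

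Repeats held 1520 sites (13.5%) and CpG islands 61. Sites in repeats had less signal, with median values of 6.44 against 0.93 FPKM, compared with 7.15 against 1.12 outside both, and their median ratio was 6.58 (6.42 to 6.76) against 6.22 (6.16 to 6.28). At low WT signal the limit of 3 FPKM in difference demands a higher ratio, and its part in the ratios of repeats was not tested. LTR elements held 575, LINEs 371 and SINEs 365. Among subfamilies with at least 20 sites the highest median ratio was that of ORR1E, an LTR of the MaLR type, picked out after its value was seen. Its 79 sites had a median ratio of 10.1 (8.29 to 12.8) with medians of 7.15 against 0.75 FPKM, and 31 of them (39.2%) reached the stricter limits, against 17.9% of all sites. The intervals of ID_B1 with 24 sites (8.24, 6.45 to 10.4, and 37.5% at the stricter limits), MTD with 27 (8.14, 5.65 to 11.5), Lx8 with 21, B4 with 47 (7.71, 6.36 to 10.1), RSINE1, MIR and L1M5 reach that of ORR1E. The alignment logs list 0 reads aligned more than once in all 6 libraries, and the sources used here do not say how reads that match several places were reported or removed.

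The X chromosome had few sites. It held 151 (1.34%), or 0.942 per Mb of covered span, while the autosomes ran from 3.44 per Mb on chromosome 14 to 6.13 on chromosome 11. Per 100 protein-coding genes X had 16.7, and the autosomes 31.8 (chromosome 7) to 85.9 (chromosome 12). Signal was lower on X in both pools, with medians of 5.26 against 0.56 FPKM, compared with 7.15 against 1.12 on the autosomes, so the median difference was 4.51 against 5.92 FPKM. The median ratio was higher, 8.27 against 6.24. The limit of 3 FPKM in difference demands a higher ratio where WT signal is lower, and its part in the higher ratio was not tested. Autosomal medians spanned 6.68 to 7.62 FPKM in the HA-RevErba pool and 1.12 to 1.30 in WT. The lower WT signal on X moves with the lower count of sites, and its part in that count was not tested.

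**Figure D5:**
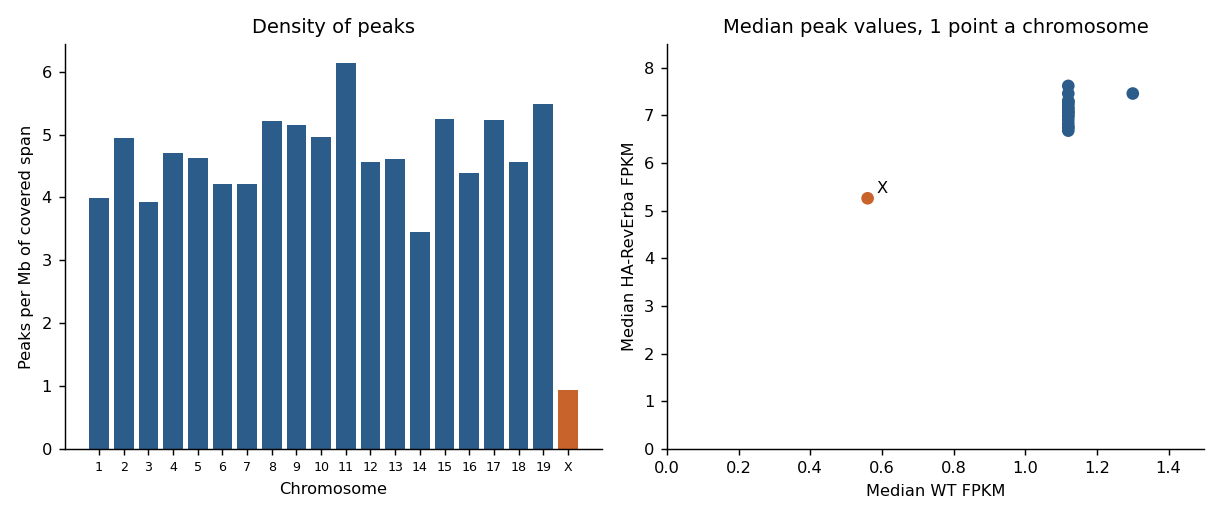
Left, sites per Mb of the span they cover on each chromosome; right, median HA-RevErba signal against median WT signal in FPKM, 1 point a chromosome, X in orange. X has 0.942 sites per Mb and medians of 5.26 and 0.56 FPKM, apart from all 19 autosomes, which lie at 3.44 to 6.13 per Mb and at 6.68 to 7.62 and 1.12 to 1.30 FPKM.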

How the data were processed

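Chromatin immunoprecipitation sequencing was analysed for 4 HA-RevErba and 2 WT libraries at 4 °C, grouped by their titles. The labels do not say whether a library is 1 animal. Tools used were HOMER 4.10 and Bowtie2 2.1.0, on mouse build mm9, per the submitters' processing notes, which give no roles. Bowtie 2 wrote the alignment logs, per the file headers. The sources used here do not give settings, duplicate handling or the base of start positions, and coordinates are printed as deposited. Per the file headers, the authors deposited 1 list of pooled peaks per temperature, with 1 FPKM value per group and window (0.01 added) and a peak score, which was not analysed. The deposited difference, named as minus input in the header, equals HA-RevErba minus WT in all 11227 windows (within 0.011 FPKM).

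From these, reads per window were recovered (100% of values whole within 0.01 FPKM) in Python 3 with scipy, and ratios given intervals. The steps were checked on simulated data. Medians have order-statistic intervals, shares Clopper-Pearson intervals at 95%. The only test was an exact permutation of library depth. Other scalings, pseudocounts of 0.5 and 1 FPKM, stricter limits, thinning, gaps and distances were tried. Gene names, IDs and promoters come from RefSeq GRCm38.p6, which matched 5447 of 5451 IDs; coordinates of the 2 builds were never mixed.

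Members, the 21 gene lists and the tests were chosen with earlier results of these data known. Named genes were those of the 15 largest differences, the 10 largest ratios at 1 FPKM or more in WT and the 5 largest of all sites, the 10 highest WT values, the 3 leaders of each class and distance bin, the 8 genes with most sites, 5 sites at each limit, every clock member and up to 6 members of other lists. Names outside it were chosen after their values were seen, and some genes the rule names are not reported here.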

Additional observations from a re-analysis of the deposited data

How the results depend on the processing

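With a pseudocount of 0.5 FPKM the median ratio over all sites was 4.58, and it was 4.57 in introns, 4.67 between genes, 4.24 at promoters, 4.59 at 10 to 50 kb and 4.69 beyond 100 kb, so promoters stayed lowest of the 3 classes and sites beyond 100 kb above those at 10 to 50 kb. With 1 FPKM the overall median was 3.71. Scaled to the aligned reads of their libraries, the pools gave a median ratio of 7.03 and a median difference of 3.004 FPKM. At the stricter limits, which select on these values, the medians were 11.8 and 10.6 FPKM, and of the 2008 sites left, 46.5% were intergenic, 2.94% promoters and 17.3% beyond 100 kb, while the shares of introns, of 10 to 50 kb and of X stayed within their intervals. Leaving out the 316 sites closer than 1 kb to a stronger one moved no share or median outside its interval. Runs of 5 or more sites numbered 7 with gaps under 5 kb and 175 under 20 kb. Over sites with at least 1 FPKM in WT the rank correlation of ratio and WT signal was -0.0905, against -0.54 over all sites. List entries with a site, 190 over the 21 lists, were 131 within 10 kb, 176 within 50 kb and 73 at the stricter limits. Leaving out 1 library at a time, the difference in mean depth ran from -0.711 M without HA-RevErba replicate 2 to 2.77 M without WT replicate 1, and was also below 0 without WT replicate 2 (-0.666 M). No paired analysis was possible because the signal is given for 1 pool per group and the 2 groups have no shared animal or batch in the labels. The WT pool, with a median of 6 reads a site, limits every ratio, and the pools hold no spread between animals.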
